A study of Mus musculus with 10 samples.

Results

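The immunoglobulin heavy and light chain genes of 10 mouse intestinal organoid RNA-seq libraries are described here. Members were the rows of the count table whose gene name begins *Ighv*, *Igkv*, *Iglv*, *Iglc*, *Igkc* or *Ighg*, or is *Igha*, *Ighm*, *Ighd* or *Ighe*, and whose counts sum to at least 20 over the 10 libraries. Of 47069 genes in the table, 232 had such a name, 179 of these had at least 1 count and 131 were members. The members were 119 V genes (35 of 115 *Ighv*, 81 of 101 *Igkv* and 3 of 3 *Iglv*) and 12 of 13 constant region genes. Members were thus selected on their measured count sum, which is given as a description only. Just outside the threshold stood *Ighv1-55* with a sum of 18 and *Ighv1-77*, *Ighv1-34*, *Ighv1-52* and *Ighv2-7* with 19, and just inside stood *Igkv1-132*, *Ighv1-67* and *Igkv9-129* with 20 and *Ighv2-6-8* with 21. The only constant region gene outside was *Iglc4*, with a sum of 2.

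The organoids were grown in Matrigel for 50 days in a medium labelled NER, which supplies Noggin, EGF and R-spondin-1. There were 5 groups of 2 libraries: saline (control), DMBA (labelled Long), Dosage-sensitive TAM (short), Dosage-sensitive TAM (Long), and DMBA together with TAM; the tamoxifen (TAM) groups are called TAM_short and TAM_long below. The same libraries are titled NS (control), NL (DMBA), DSS_S (TAM_short), DSS_L (TAM_long) and Lgr5 (DMBA+TAM), so that control shares an S with TAM_short and DMBA an L with TAM_long. What these titles, or short and long, refer to is not given in the sources used here, and whether such a factor differs beside the treatment cannot be told apart from the treatment. DMBA is a polycyclic aromatic carcinogen, and tamoxifen activates CreERT2. The labels give the strain C57BL/6, and the study describes organoids from Lgr5-EGFP-CreERT2 mice with floxed *Ppp2r1a*. All groups, control included, therefore carry the floxed alleles, and Cre is driven by the promoter of *Lgr5*, a gene of crypt stem cells. No source says whether the 2 libraries of a group came from separate mice or cultures, so p-values measure the spread between these libraries only.

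The DMBA+TAM libraries stood apart from the other 8. They held 1592366 and 1915270 counts, against 8828247 to 10923673 elsewhere, so that 3 counts (the floor used here) stood for 1.58 and 1.32 normalized CPM (TMM-scaled counts relative to library size) there and for 0.259 to 0.379 elsewhere. *Epcam*, a surface protein of epithelial cells, had 1.58 and 1.32 normalized CPM in DMBA+TAM, at the floor, and 1418 to 3085 in the other 8 libraries. The summed level of 10 epithelial genes was 33.3 and 22.9 in DMBA+TAM against 13516 to 22894 elsewhere, so transcripts of the labelled organoid epithelium were seen in DMBA+TAM at a very low level. The summed level of 10 macrophage genes was 7829 and 7387 normalized CPM in DMBA+TAM and 223 to 450.5 elsewhere, and that of 10 fibroblast genes 32412 and 33383 against 686 to 2269. *Ppp2r1a*, the floxed gene, had 123 and 129 normalized CPM in control and 129 to 169 in the 8 other libraries, so no library given tamoxifen was below the control range; counts per gene do not separate the floxed exons.

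An antibody is built from a pair of heavy and a pair of light chains. In each B cell, a V segment is joined to D and J segments (heavy chain) or to a J segment (kappa or lambda light chain), and this V exon is spliced to a constant region. Naive B cells transcribe *Ighm* (IgM) and *Ighd* (IgD), and class switching replaces them with an *Ighg*, *Ighe* or *Igha* constant region. The gut wall holds many plasma cells that secrete dimeric IgA, which the epithelium carries into the lumen through the polymeric Ig receptor. In mice most light chains are kappa. These genes are transcribed by B cells and plasma cells, which are not epithelial. Organoids in this kind of medium are grown from epithelial stem cells, and plasma cells and B cells are not among the cells they form. The sources used here do not say how such transcripts came to be in these libraries, so the values below describe the libraries as deposited and not antibody expression by epithelium.

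The heavy chain genes lie on chromosome 12 and the kappa genes on chromosome 6 of GRCm38, and the lambda genes on chromosome 16. *Igha* spans chr12:113254830-113260236, *Ighm* chr12:113418558-113422730 and *Ighd* chr12:113406604-113416324, each on the minus strand, and *Igkc* spans chr6:70726435-70726966 on the plus strand. The V genes below are shown because each led a library's V reads or *Ighv* reads. Each line gives the last 72 coding bases of the germline V exon (GENCODE M21 on GRCm38, read 5′ to 3′ on the gene's strand), with the codon of the second conserved cysteine, which precedes the antigen-binding CDR3 loop, in capitals.
Igkv1-117, chr6:68121756-68121827, plus: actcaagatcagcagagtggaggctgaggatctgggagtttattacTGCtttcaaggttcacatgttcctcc
Igkv3-10, chr6:70573159-70573230, plus: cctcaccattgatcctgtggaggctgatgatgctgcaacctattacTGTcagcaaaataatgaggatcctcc
Igkv12-44, chr6:69814631-69814702, minus: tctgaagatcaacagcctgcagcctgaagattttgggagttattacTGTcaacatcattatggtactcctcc
Igkv4-59, chr6:69438218-69438289, minus: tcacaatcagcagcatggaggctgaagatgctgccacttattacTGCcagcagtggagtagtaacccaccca
Ighv4-1, chr12:113948282-113948353, minus: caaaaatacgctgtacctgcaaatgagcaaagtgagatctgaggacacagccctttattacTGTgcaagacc
Ighv2-9-1, chr12:113769850-113769921, minus: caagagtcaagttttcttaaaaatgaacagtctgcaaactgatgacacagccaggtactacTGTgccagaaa

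V genes are near copies of each other, which limits how surely a read can be given to one. Of the 50-base windows of a V transcript, a median of 24.6% in the 35 *Ighv* members and 26.4% in the 81 *Igkv* members also occurred in another V gene, and 5 and 15 members shared at least 50% of theirs. Among the leading genes the shared percentage was 74.3% for *Igkv4-59*, 53.5% for *Igkv3-10*, 49.9% for *Igkv1-117* (all of it with *Igkv1-110*), 30.7% for *Igkv12-44*, 29.9% for *Ighv4-1* and 17.2% for *Ighv2-9-1*. The split of reads within V families is therefore uncertain. Of the 12 constant region members, 6 shared no window and the most shared 10.7% (*Iglc3*), so their counts can be told apart.

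Immunoglobulin genes made up a visible part of the transcriptome in 8 libraries and almost none in DMBA+TAM. Their reads were 0.357% and 0.393% of all counts in the control libraries, 0.361% and 0.814% in DMBA, 0.382% and 0.447% in TAM_short and 0.490% and 0.558% in TAM_long. In DMBA+TAM, 92 and 102 reads remained, 0.00578% (95% Wilson interval 0.00471 to 0.00708) and 0.00533% (0.00439 to 0.00646); these and all other intervals cover counting error only. The summed level was 4155 and 4728 normalized CPM in control, 3229 and 8371 in DMBA, 4246 and 4985 in TAM_short, 4620 and 5342 in TAM_long, and 48.6 and 44.9 in DMBA+TAM. DMBA replicate 2 had the highest and DMBA replicate 1 the lowest level of the 8, while DMBA+TAM lay below every other library. On the log2 scale the mean of the DMBA+TAM libraries was 6.65 below that of the other 8, with a pooled SD between replicates of 0.45. In such bulk samples, fewer cells of a type and less RNA per cell cannot be told apart.

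Counts were compared between groups by edgeR's quasi-likelihood test over 16179 genes, with Benjamini-Hochberg adjustment and a threshold of 0.05; 111 of the 131 members passed its filter on low counts. The filter favors members that are high in some group, so the counts below are a description of the members tested. In DMBA+TAM against control, 0 members were higher and 86 were lower (of all genes, 29.0% were higher and 35.3% lower), with a median log2 fold change of -7.84 against -0.17 over all genes. Against DMBA, 0 were higher and 77 lower (all genes 25.2% and 29.9%), against TAM_long 0 and 72 (all genes 25.3% and 29.9%), and against TAM_short 0 and 73 (all genes 29.3% and 33.8%). These 4 comparisons share the DMBA+TAM libraries. Without DMBA+TAM replicate 2 the counts lower were 49 against DMBA, 41 against TAM_long and 44 against TAM_short. Fitted fold changes of genes at 0 counts depend on the tool's prior, and 83 members had a fold against control that is only a lower bound, so the median is no estimate of size. In DMBA against control, 11 members were higher and 8 lower, below the shares of all genes (24.5% and 23.3%), with a median of -0.19 against 0.07. In TAM_long against control, 11 were higher and 32 lower (all genes 23.2% and 22.8%), with a median of -0.49 against 0.05, and in TAM_short against control 4 were higher and 20 lower (all genes 6.52% and 7.80%), with a median of -0.33 against -0.04. These 3 comparisons share the control libraries. In TAM_long against DMBA, 1 was higher and 10 were lower (all genes 1.24% and 1.46%), with a median of -0.59 against -0.00.

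Calls between the 4 groups other than DMBA+TAM moved when single libraries were left out. The total for DMBA against control was 19 with all libraries, 8 without control replicate 2, 34 without DMBA replicate 1 and 51 without DMBA replicate 2. For TAM_long against control it was 43, and 24 without either control library, 26 without TAM_long replicate 1 and 16 without TAM_long replicate 2. For TAM_short against control it was 24, and 0 without control replicate 1 or TAM_short replicate 2, 3 without control replicate 2 and 2 without TAM_short replicate 1, while a fit to these 2 groups alone gave 55. For TAM_long against DMBA it was 11, and 42 without DMBA replicate 1, 20 without DMBA replicate 2 and 3 without either TAM_long library.

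IgA with kappa was the main transcript pair in the 8 libraries outside DMBA+TAM. *Igha*, the constant region of IgA, had 2012 and 2300 normalized CPM in control, 1369 and 3949 in DMBA, 2132 and 2662 in TAM_short, 2330 and 2697 in TAM_long, and 3.70 and 3.52 in DMBA+TAM. The 2 DMBA libraries enclosed all other groups except DMBA+TAM. *Igkc*, the kappa constant region, had 1391 and 1559 in control, 1223 and 3057 in DMBA, 1500 and 1709 in TAM_short, 1738 and 2003 in TAM_long, and 2.11 and 2.20 in DMBA+TAM. In DMBA+TAM these rest on 7 and 8 counts of *Igha* and 4 and 5 of *Igkc*. Against control, the log2 fold change in DMBA+TAM was -9.22 for *Igha* (SE 0.60, adjusted p = 6.00e-07) and -9.40 for *Igkc* (SE 0.54, adjusted p = 2.95e-07), both by edgeR. It was -9.52 and -9.94 against DMBA, -9.44 and -9.75 against TAM_long, and -9.37 and -9.53 against TAM_short. In DMBA, TAM_long and TAM_short against control neither gene passed the test: the log2 fold changes were 0.30, 0.22 and 0.15 for *Igha* and 0.54, 0.34 and 0.12 for *Igkc*. Scaled by library size only, *Igkc* passed in DMBA against control by edgeR (log2 fold change 0.81, adjusted p = 0.0402). It also passed there with no filter on low counts (0.52, adjusted p = 0.00315). Its log2 fold change there was 1.03 without DMBA replicate 1 and -0.28 without DMBA replicate 2. For DMBA the direction hung on 1 library: *Igha* was 0.66 below control on the log2 scale (adjusted p = 0.0124) without DMBA replicate 2 and 0.85 above it (adjusted p = 0.00288) without DMBA replicate 1.

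**Figure D1:**
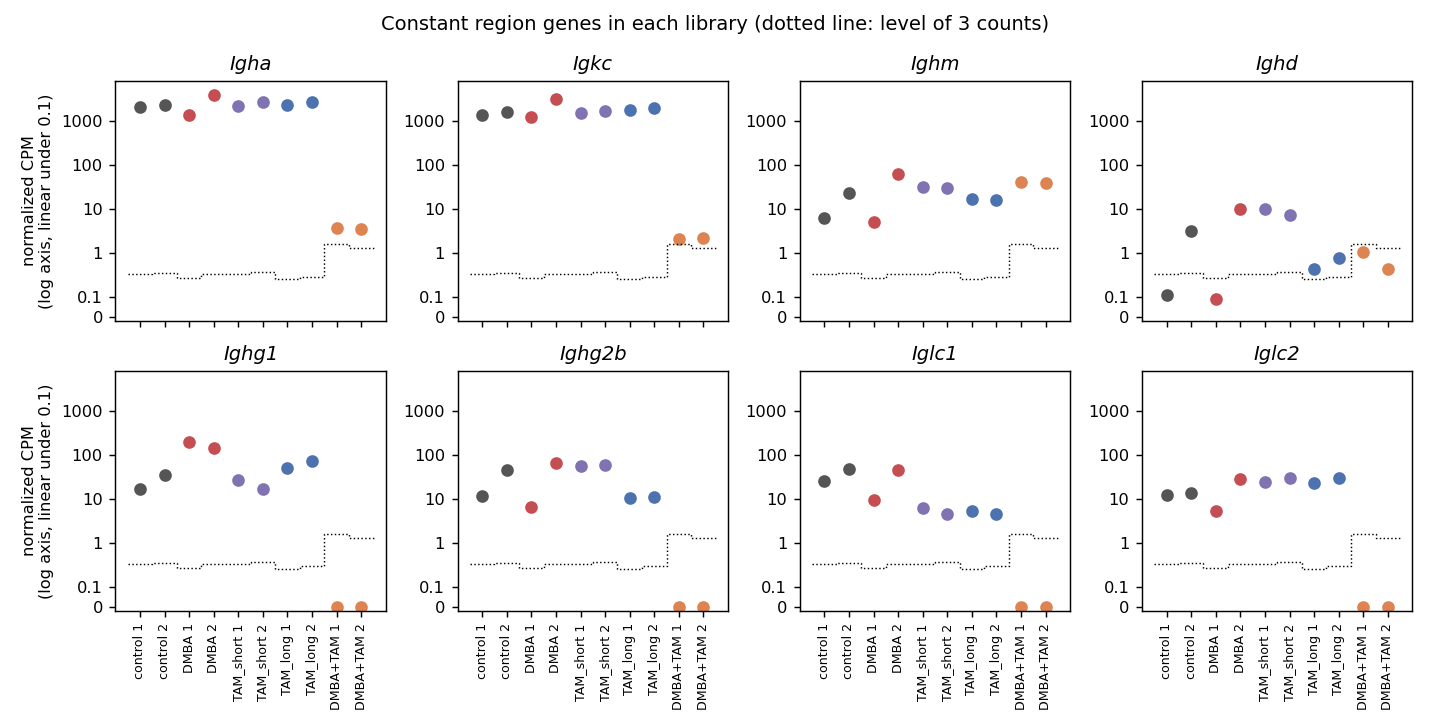
Levels of 8 constant region genes in each of the 10 libraries, in normalized CPM on a log axis that is linear under 0.1, with the level of 3 counts as a dotted line. *Igha* and *Igkc* lie between 1223 and 3949 in 8 libraries and at 2.11 to 3.70 in DMBA+TAM, while *Ighm* in DMBA+TAM (40.1 and 38.8) lies within the range of the other libraries (5.00 to 62.3).

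IgM did not follow IgA. *Ighm* had 6.11 and 22.6 normalized CPM in control, 5.00 and 62.3 in DMBA, 31.4 and 29.5 in TAM_short, 17.2 and 16.0 in TAM_long, and 40.1 and 38.8 in DMBA+TAM (76 and 88 counts). The DMBA+TAM libraries were above every library of control, TAM_short and TAM_long and lay between the 2 DMBA libraries. By edgeR, the log2 fold change of *Ighm* in DMBA+TAM was 1.46 against control (SE 0.93, adjusted p = 0.195), 0.24 against DMBA (adjusted p = 0.836), 1.25 against TAM_long (adjusted p = 0.272) and 0.37 against TAM_short (adjusted p = 0.737), none past the threshold. A fit to the 2 groups alone gave 1.56 against control (adjusted p = 0.0129), 1.27 against TAM_long (adjusted p = 0.000698) and 0.43 against TAM_short (adjusted p = 0.0218). Without DMBA replicate 2 the value against DMBA was 2.95 (adjusted p = 0.00288), and without DMBA replicate 1 it was -0.66 (adjusted p = 0.285).

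*Ighd*, the constant region of IgD, split the libraries within groups. It had 0.11 and 3.25 normalized CPM in control, 0.09 and 10.2 in DMBA, 10.1 and 7.32 in TAM_short, 0.43 and 0.79 in TAM_long, and 1.06 and 0.44 in DMBA+TAM, where it rested on 2 counts and 1. It was high in control replicate 2, DMBA replicate 2 and both TAM_short libraries. In the 8 libraries outside DMBA+TAM, the summed level of 15 B cell genes outside the immunoglobulin loci was high in the same libraries: 15.9 and 75.5 in control, 23.7 and 167 in DMBA, 140.2 and 147 in TAM_short, and 28.5 and 27.6 in TAM_long. In DMBA+TAM it was 120.4 and 119.4, near TAM_short, while *Ighd* was not. The part of these B cell transcripts in the *Ighd* and *Ighm* levels was not tested. *Ighe*, the constant region of IgE, had 0 to 12 counts per library, and only TAM_long (12 and 6 counts) was above 3 counts in both replicates.

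Shares of the heavy chain classes were computed from FPKM, which is per length. *Igha* took 98.1% and 94.97% of the heavy chain constant region level in control, 86.2% and 92.4% in DMBA, 93.2% and 94.9% in TAM_short, 96.3% and 96.1% in TAM_long, and 7.26% and 7.29% in DMBA+TAM. *Ighm* took 89.8% and 91.4% in DMBA+TAM, where 76 of 85 and 88 of 97 heavy chain constant region reads were *Ighm* (exact 95% intervals 80.8% to 95.04% and 83.1% to 95.7% of reads), and 0.339% to 1.66% elsewhere. *Ighd* took 2.89% and 1.27% in DMBA+TAM and 0.00769% to 0.614% elsewhere. The heavy to light chain ratio of constant regions was 0.374 to 0.469 in the other 8 libraries and 7.05 and 6.42 in DMBA+TAM, and the *Ighm* to *Igkc* ratio was 0.00136 to 0.00698 against 6.33 and 5.87. In DMBA+TAM the light chain side of these ratios rests on 4 and 5 reads. An exact permutation test over the 5 groups (every way to split the 10 libraries into pairs, smallest p 0.00106) gave p = 0.00635 for the *Igha* share and 0.0698 for the *Ighm* share, or 0.0254 and 0.105 after adjustment over 6 values. These were the kappa, *Igha*, *Ighg* and *Ighm* shares, the summed immunoglobulin level and the effective number of V genes. Without both DMBA+TAM libraries the adjusted p for *Igha* was 0.190, and it was 0.0508 to 0.0593 without DMBA replicate 1, TAM_short replicate 1 or either TAM_long library. For *Ighm* it was 0.0349 and 0.0397 without DMBA replicate 1 and 2.

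**Figure D2:**
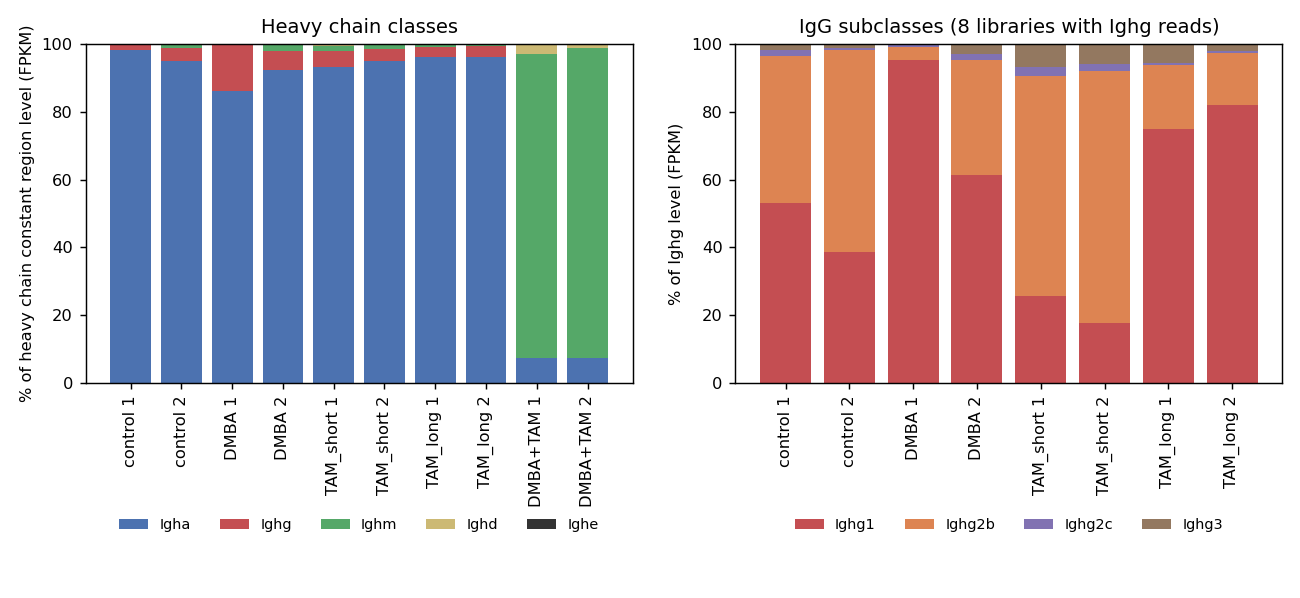
Left, the percentage of the heavy chain constant region level (FPKM) taken by each class in each library; right, the percentage of the *Ighg* level taken by each IgG subclass in the 8 libraries with *Ighg* reads. *Igha* takes 86.2% to 98.1% in 8 libraries and *Ighm* 89.8% and 91.4% in DMBA+TAM; *Ighg1* leads in DMBA and TAM_long and *Ighg2b* in TAM_short.

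IgG transcripts were highest in DMBA, through *Ighg1*. *Ighg1* (chr12:113325240-113330523), the constant region of the IgG1 subclass, had 16.6 and 34.6 normalized CPM in control, 198 and 143 in DMBA, 26.4 and 17.0 in TAM_short, 50.4 and 72.5 in TAM_long, and 0 in both DMBA+TAM libraries. Both DMBA libraries were above all others, and both TAM_long libraries were above control and TAM_short. The groups that share an L in their titles (DMBA and TAM_long) were thus wholly above those that share an S (control and TAM_short). The comparisons of DMBA and TAM_long with control cross these titles, so treatment and what the titles mark cannot be told apart in them. By edgeR it rose 6.67-fold in DMBA against control (log2 fold change 2.74, SE 0.36, adjusted p = 0.000364) and 2.40-fold in TAM_long against control (1.26, SE 0.35, adjusted p = 0.0176), the latter not past the threshold without control replicate 1 (adjusted p = 0.119) or TAM_long replicate 2 (adjusted p = 0.124). Without control replicate 2 the ratio to control was 10.3-fold in DMBA and 3.70-fold in TAM_long. The DMBA+TAM level was at least 17.6-fold under that of control (at least 11.4-fold without control replicate 2) and at least 118-fold lower against DMBA.

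*Ighg2b* (chr12:113302965-113307933) followed another order. It had 11.4 and 44.8 normalized CPM in control, 6.52 and 66.5 in DMBA, 56.6 and 60.6 in TAM_short, 10.8 and 11.4 in TAM_long and 0 in DMBA+TAM. It was high in the libraries with high *Ighd* and low in the others, and its fold changes against control in DMBA, TAM_long and TAM_short did not pass the test (adjusted p = 0.754, 0.260 and 0.469 by edgeR). The ratio of DMBA to control was 1.30, but 0.232 without DMBA replicate 2 and 0.815 without control replicate 1. Its DMBA+TAM level was at least 19.4-fold lower against control, a bound of 7.86-fold without control replicate 2 and 30.8-fold without control replicate 1. That call (adjusted p = 0.0231 by edgeR) was lost without control replicate 2 (0.0746), DMBA+TAM replicate 1 (0.0794) or DMBA+TAM replicate 2 (0.0977). *Ighg3* had 0.34 and 0.60 in control, 0.09 and 4.38 in DMBA, 4.18 and 3.41 in TAM_short and 2.24 and 1.08 in TAM_long, and *Ighg2c*, the IgG2 subclass gene that C57BL/6 mice carry in place of *Ighg2a*, had 0.26 to 2.36 in these 8 libraries. *Ighg2c* was at least 4.90-fold higher in DMBA than in control by edgeR (adjusted p = 0.0194), a call not made by DESeq2 (adjusted p = 0.0711) or without control replicate 1 (0.110), control replicate 2 (0.102) or DMBA replicate 2 (0.128, with a bound of 3.06-fold). In TAM_short *Ighg2c* had 1.81 and 1.39 normalized CPM, against 0.34 and 0.36 in control. That was at least 4.56-fold higher, not past the threshold by edgeR (adjusted p = 0.0603).

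The IgG share of the heavy chain constant region level was 1.56% and 3.77% in control, 13.4% and 5.58% in DMBA, 4.62% and 3.53% in TAM_short, 2.84% and 3.22% in TAM_long and 0 in DMBA+TAM. The exact permutation test over the 5 groups gave p = 0.00847 (adjusted 0.0254). The adjusted p was 0.190 without both DMBA+TAM libraries, and between 0.0720 and 0.163 when any single library other than DMBA replicate 2 was left out. Within IgG, *Ighg1* took 53.2% and 38.7% in control, 95.4% and 61.4% in DMBA, 25.6% and 17.6% in TAM_short and 74.9% and 82.0% in TAM_long. *Ighg2b* took 43.4% and 59.6%, 3.73% and 33.9%, 65.1% and 74.4%, and 19.0% and 15.3% in the same order. TAM_short was thus the group with the lowest *Ighg1* percentage and TAM_long and DMBA had the highest, with no overlap between TAM_short and any other group. *Ccl25*, an epithelial chemokine that draws plasmablasts to the small intestine, also split the groups by the S and L that their titles share. It had 763 and 833 normalized CPM in control and 578 and 557 in TAM_short, against 2.36 to 8.28 in DMBA and TAM_long. The part of *Ccl25* in the IgG values was not tested.

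Lambda light chains were a small part of the light chain pool in each of the 8 libraries outside DMBA+TAM. The lambda share of light chain constant regions (FPKM) was 3.12% and 4.46% in control, 1.41% and 2.79% in DMBA, 2.36% and 2.18% in TAM_short, and 1.81% and 1.78% in TAM_long. It was 0 in DMBA+TAM, where 0 of 4 and 0 of 5 reads allow up to 60.2% and 52.2% (exact 95% limits). Over the other 4 groups, the exact permutation test of the kappa share gave p = 0.124 (adjusted 0.206), which did not pass. With DMBA+TAM the exact permutation p was 0.0138 (adjusted 0.0275), but there both libraries enter as wholly kappa on 4 and 5 reads, so no difference in kappa share is read from it. Counted from V reads in place of constant regions, the kappa share was 91.9% (control replicate 2) to 97.0% (DMBA replicate 1) in the 8 libraries. By both measures lambda was highest in control replicate 2 and lowest in DMBA replicate 1.

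Of the lambda constant regions, *Iglc2* and *Iglc3* are close copies, while *Iglc1* shared no 50-base window with either. The 54-base stretches below, from the start region of each constant exon, show how *Iglc1* is separated from *Iglc2* and *Iglc3* (GENCODE M21 on GRCm38, minus strand, capitals mark bases that differ from *Iglc1*).
Iglc1, chr16:19061994-19062047: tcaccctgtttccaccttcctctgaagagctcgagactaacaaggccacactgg
Iglc2, chr16:19198775-19198828: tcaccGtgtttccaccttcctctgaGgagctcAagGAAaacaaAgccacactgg
Iglc3, chr16:19065604-19065657: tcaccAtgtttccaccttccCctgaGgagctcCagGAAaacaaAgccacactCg
In this stretch *Iglc2* differs from *Iglc1* at 7 bases and *Iglc3* at 9, while *Iglc2* and *Iglc3* differ at 4. Over the coding exon, *Iglc1* and *Iglc2* were 76.2% identical and *Iglc2* and *Iglc3* 96.5% (11 of 314 bases differ), so that reads of the latter pair are the harder to separate.

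*Iglc1* made up most of the lambda constant region level in control and DMBA and a minor part of it in TAM_short and TAM_long. *Iglc1* had 25.7 and 48.3 normalized CPM in control, 9.29 and 45.5 in DMBA, 6.10 and 4.67 in TAM_short, 5.35 and 4.52 in TAM_long and 0 in DMBA+TAM. All 4 libraries of TAM_short and TAM_long were below all 4 of control and DMBA. By edgeR it fell against control in TAM_long (log2 fold change -2.90, SE 0.66, adjusted p = 0.00702) and in TAM_short (-2.77, SE 0.67, adjusted p = 0.0272), and was at -0.44 in DMBA (adjusted p = 0.565). TAM_long against DMBA was -2.45 (adjusted p = 0.0886). These 2 values hung on single libraries, of DMBA and, for the first, also of control. The ratio of *Iglc1* in DMBA to control was 0.741. It was 1.23 without DMBA replicate 1, 1.07 without control replicate 2 and 0.251 without DMBA replicate 2. The ratio of TAM_long to DMBA was 0.180, but 0.531 without DMBA replicate 2 and 0.108 without DMBA replicate 1. The TAM_long call was lost without control replicate 2 (adjusted p = 0.0544) or TAM_long replicate 2 (0.0551), and the TAM_short call without any 1 of its 4 libraries (0.0619 to 0.202). *Iglc2* had 12.6 and 13.7 in control, 5.36 and 28.4 in DMBA, 24.5 and 29.7 in TAM_short, and 23.0 and 29.3 in TAM_long, with no call against control (adjusted p = 0.660, 0.189 and 0.276 in DMBA, TAM_long and TAM_short), and its ratio of DMBA to control turned from 1.29 to 0.408 without DMBA replicate 2. Per length, *Iglc1* made up 67.2% and 77.8% of the lambda constant region level in control, 62.2% and 60.7% in DMBA, 19.8% and 14.4% in TAM_short, and 19.6% and 14.6% in TAM_long. *Iglc3* had 1.07 to 4.83 normalized CPM in these 8 libraries. In DMBA+TAM, *Iglc1* was at least 25.5-fold and *Iglc2* at least 9.05-fold lower against control.

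**Figure D3:**
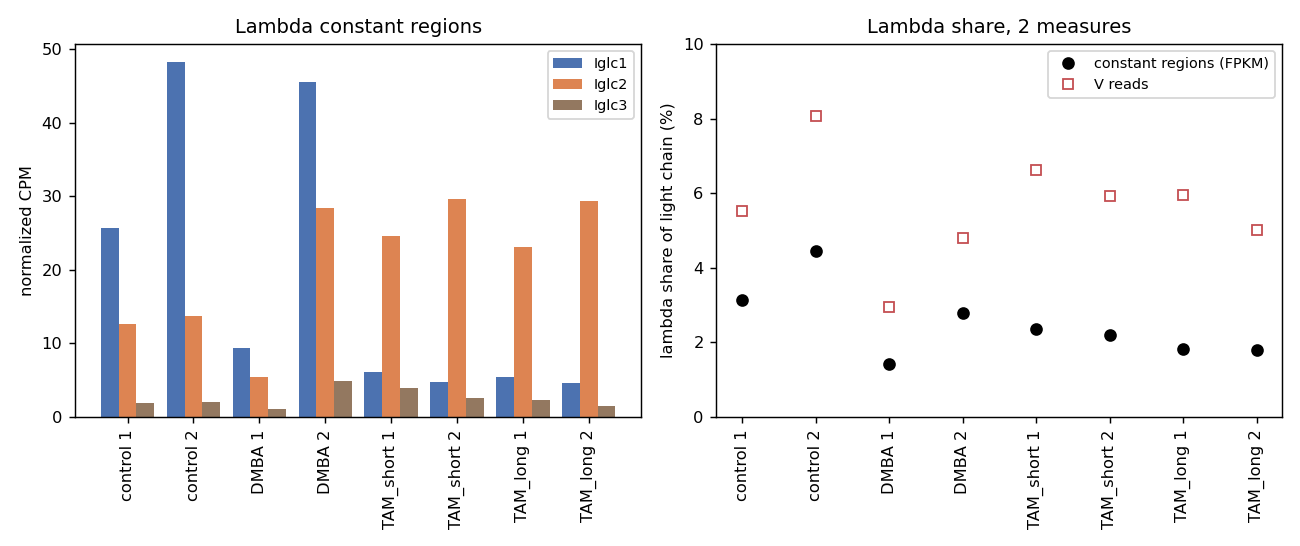
Left, normalized CPM of the 3 lambda constant regions in the 8 libraries with lambda reads; right, the lambda percentage of the light chain pool from constant regions (FPKM, filled circles) and from V reads (open squares). Bars are not scaled by gene length. *Iglc1* is the tallest bar in control and DMBA, and *Iglc2* in TAM_short and TAM_long, while the lambda percentage stays at 1.41% to 4.46% by constant regions.

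The lambda V genes were led by *Iglv1* in every one of the 8 libraries. *Iglv1*, which usually joins to *Iglc1* or *Iglc3*, had 30.6 and 46.6 normalized CPM in control, 9.73 and 38.5 in DMBA, 22.0 and 20.4 in TAM_short, and 19.2 and 17.0 in TAM_long. It made up 91.2% and 92.6% of *Iglv* reads in control, 87.2% and 87.5% in DMBA, 79.9% and 80.6% in TAM_short, and 80.8% and 72.7% in TAM_long. By edgeR, *Iglv1* did not pass against control in TAM_long (log2 fold change -1.09, adjusted p = 0.107) or TAM_short (-0.86, adjusted p = 0.302). In these groups *Iglv1* kept most of the *Iglv* reads, while *Iglc1* took only 14.4% to 19.8% of the *Iglc* level. The V genes thus did not show the change of *Iglc1* to the same degree. Per length, the summed *Iglv* level was 0.687 to 1.05 of the summed *Iglc* level in the 8 libraries, which does not show this difference. *Iglv2*, which usually joins to *Iglc2*, had 0.45 and 0.48 in control and 3.19 and 4.72 in TAM_long, a log2 fold change of 3.04 by edgeR (SE 0.78, adjusted p = 0.0120); the call was lost without control replicate 1 (0.0883), control replicate 2 (0.0844) or TAM_long replicate 2 (0.0718). In TAM_short it had 1.36 and 1.51 and in DMBA 0.27 and 2.02. *Iglv3* had 1.16 to 4.18 in the 8 libraries, and no *Iglv* read was found in DMBA+TAM.

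V gene usage was counted over all 219 V genes with a fitting name, members or not. There were 5988 and 5796 V reads in control, 4579 and 8880 in DMBA, 3977 and 3630 in TAM_short, 5085 and 5123 in TAM_long, and 3 and 0 in DMBA+TAM, which was left out of the usage values. Between 121 and 148 V genes had at least 1 read per library. The effective number of V genes (the inverse of the summed squared shares, in reads thinned to 3630 per library) was 40.0 and 36.9 in control, 32.7 and 40.2 in DMBA, 46.0 and 40.7 in TAM_short, and 44.5 and 37.5 in TAM_long. Groups overlapped, and the exact permutation test over 4 groups (105 splits, smallest p 0.00952) gave p = 0.448 (0.448 adjusted). For *Ighv* alone, thinned to 234 reads, it was 16.9 and 17.8 in control, 16.5 and 18.8 in DMBA, 22.8 and 23.8 in TAM_short, and 15.3 and 15.7 in TAM_long, with TAM_short above all others (exact permutation p = 0.0476, 0.0714 adjusted). For *Igkv* alone it was 27.1 to 39.6. The 10 leading V genes of a library together took 36.4% to 46.0% of its V reads, and no V gene took more than 7.64%.

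**Figure D4:**
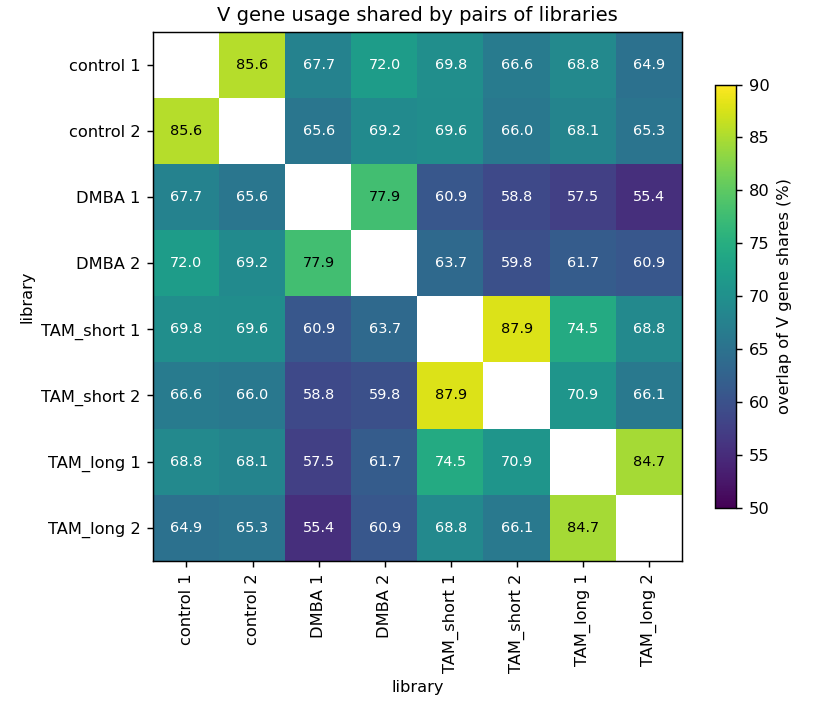
Percentage of V gene usage shared by each pair of the 8 libraries with V reads (the sum over V genes of the smaller of the 2 shares). The 4 pairs of replicates stand at 77.9 to 87.9, and the 24 pairs from different groups at 55.4 to 74.5.

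Each library's V usage was most like that of its own replicate. The overlap of usage (the sum over V genes of the smaller of the 2 shares) was 85.6% between the control replicates, 77.9% in DMBA, 87.9% in TAM_short and 84.7% in TAM_long. Over the 24 pairs from different groups it was 55.4% to 74.5%, with a median of 66.0%. For all 8 libraries the closest library was the replicate. The pairs share libraries, so these values are a description. Replicates that differed in total immunoglobulin level (DMBA) or in *Ighd* and B cell genes (control and DMBA) still shared V usage.

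The V gene with the most reads was not the same in every library, by margins that were sometimes small. *Igkv1-117* led in control with 368 of 5988 reads (6.15%, 95% Wilson interval 5.56 to 6.78) and 443 of 5796 (7.64%, 6.99 to 8.36), in DMBA replicate 2 with 499 (5.62%) and in TAM_long replicate 1 with 263 (5.17%). Close behind it came *Igkv10-96* in control replicate 1 (360 reads), *Igkv6-23* in DMBA replicate 2 (492) and *Igkv4-59* in TAM_long replicate 1 (250). *Igkv3-10* led in DMBA replicate 1 with 319 (6.97%, 6.26 to 7.74) beside 308 of *Igkv1-117*, *Igkv12-44* in TAM_short with 215 (5.41%) and 251 (6.91%), and *Igkv4-59* in TAM_long replicate 2 with 331 (6.46%) beside 328 of *Igkv1-110*. Among *Ighv* genes, *Ighv4-1* led in control (69 and 80 reads) and DMBA (41 and 85), and *Ighv2-9-1* in TAM_long (63 and 57). *Ighv1-82* and *Ighv2-2* tied for the lead in TAM_short replicate 1 with 20 reads each, and *Ighv8-12* led in TAM_short replicate 2 with 21. By family, *Igkv4* took 14.1% and 17.2% of V reads in control, 8.28% and 11.2% in DMBA, 16.4% and 16.0% in TAM_short, and 21.5% and 26.0% in TAM_long. *Igkv3* took 18.6% and 11.1% in DMBA and 6.15% to 8.62% in the other 6 libraries.

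Several kappa V genes stood out in DMBA. *Igkv3-10* had 34 and 30 reads in control, 319 and 354 in DMBA, 15 and 15 in TAM_short and 30 and 58 in TAM_long, and both DMBA libraries were far above all others. By edgeR its log2 fold change against control was 3.19 (SE 0.36, adjusted p = 8.70e-05), and TAM_long against DMBA was -3.05 (SE 0.35, adjusted p = 0.00326; 0.0807 in a fit to these 2 groups alone). The call against control held with each library left out. *Igkv5-43*, named after its values were seen, had 82 and 65 reads in control, 293 and 324 in DMBA, 65 and 79 in TAM_short and 83 and 62 in TAM_long (DMBA against control 1.87, SE 0.24, adjusted p = 0.000316). *Igkv3-5*, named in the same way, had 66 and 53 in control, 277 and 213 in DMBA and 31 to 42 in TAM_short and TAM_long (DMBA against control 1.81, SE 0.22, adjusted p = 0.000236). It shares 37.5% of its windows with *Igkv3-10*. In TAM_long against DMBA, *Igkv5-43* (-2.23, adjusted p = 0.00326) and *Igkv3-5* (-2.97, adjusted p = 0.000832) were lower. *Igkv12-44* had 124 and 65 reads in control, 19 and 50 in DMBA, 215 and 251 in TAM_short and 177 and 120 in TAM_long. It fell in DMBA against control (log2 fold change -1.62, SE 0.49, adjusted p = 0.0237), and so did *Igkv10-96* (-0.86, SE 0.26, adjusted p = 0.0231), but neither passed without control replicate 1 (0.178 and 0.193), without DMBA replicate 1 (0.0765 and 0.0950) or in a fit to the 2 groups alone (0.0670 and 0.0550). Scaled by library size only, the *Igkv10-96* call was lost as well (log2 fold change -0.57, adjusted p = 0.0845 by edgeR).

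**Figure D5:**
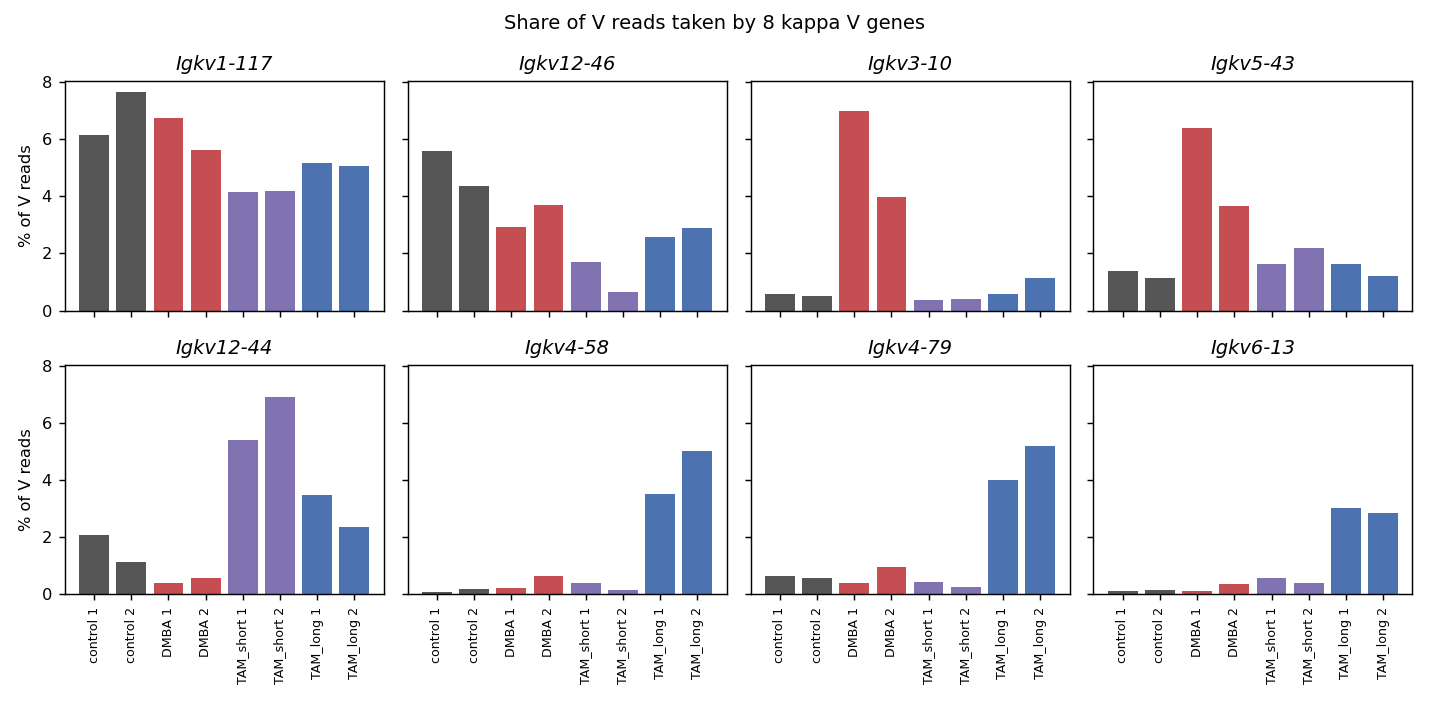
Percentage of a library's V reads taken by 8 kappa V genes in the 8 libraries with V reads. *Igkv3-10* and *Igkv5-43* are highest in DMBA, *Igkv12-44* in TAM_short, and *Igkv4-58*, *Igkv4-79* and *Igkv6-13* in TAM_long, each with both replicates above all libraries of the other groups.

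Other V genes stood out in TAM_long. *Igkv4-58*, named after its values were seen, had 5 and 12 reads in control, 10 and 56 in DMBA, 16 and 6 in TAM_short and 178 and 257 in TAM_long, and rose in TAM_long against control by edgeR (log2 fold change 4.33, SE 0.82, adjusted p = 0.00280). *Igkv6-13* had 7 and 9, 6 and 33, 23 and 15, and 153 and 146 reads in the same order (3.86, SE 0.68, adjusted p = 0.00188). *Igkv4-79* had 39 and 34, 19 and 84, 18 and 10, and 204 and 266 (2.36, SE 0.61, adjusted p = 0.0124). The latter 2 were also named after their values were seen. The calls of *Igkv4-58* and *Igkv6-13* held with each library left out, while that of *Igkv4-79* was lost without control replicate 1 (0.0830), control replicate 2 (0.0941) or TAM_long replicate 2 (0.0786).

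Of the 5 V genes with the most reads in each of *Ighv* and *Igkv* and the V genes that led a library, 6 passed as lower against control in both TAM_long and TAM_short, and they are grouped here for that, after their values were seen. Others with many reads in control, such as *Igkv4-59* and *Igkv1-110*, did not, and V genes outside these may show the same: *Igkv14-111*, also chosen after its values were seen, had 195 and 200 reads in control, 56 and 143 in DMBA, 59 and 65 in TAM_short and 58 and 68 in TAM_long. *Ighv4-1* had 69 and 80 reads in control, 41 and 85 in DMBA, 12 and 17 in TAM_short and 10 and 15 in TAM_long. It fell against control in TAM_long (log2 fold change -2.90, SE 0.53, adjusted p = 0.00222) and in TAM_short (-2.31, SE 0.52, adjusted p = 0.0197), and against DMBA in TAM_long (-2.48, adjusted p = 0.0492), all by edgeR. *Igkv12-46* had 334 and 253 reads in control, 134 and 328 in DMBA, 68 and 23 in TAM_short and 130 and 147 in TAM_long (TAM_short against control -2.67, adjusted p = 0.0147, and TAM_long -1.41, adjusted p = 0.0480). *Igkv10-96* had 360 and 221, 164 and 202, 140 and 140, and 146 and 123 (TAM_long -1.45, adjusted p = 0.00210, and TAM_short -1.01, adjusted p = 0.0342). *Igkv1-117* had 368 and 443, 308 and 499, 165 and 152, and 263 and 259 (TAM_long -0.98, adjusted p = 0.0239, and TAM_short -1.33, adjusted p = 0.0208). *Ighv8-5* (58 and 46 reads in control, 9 to 14 in TAM_long, 14 and 6 in TAM_short) and *Ighv1-9* (37 and 52, 8 and 11, and 18 and 8) fell in both groups as well. Of these TAM_long calls, those of *Ighv4-1* against control, *Igkv10-96* and *Ighv1-9* held with each library left out, that of *Ighv8-5* was lost without TAM_long replicate 1 (0.0593), that of *Igkv1-117* without control replicate 2 or either TAM_long library (0.0786 to 0.148), and that of *Igkv12-46* without any 1 library (0.114 to 0.204). Scaled by library size only, *Igkv1-117* and *Igkv12-46* did not pass either (0.0592 and 0.0873). Of the TAM_short calls, that of *Igkv12-46* held without TAM_short replicate 1 and that of *Igkv10-96* without control replicate 2, and every other library left out ended each of the 6 calls (0.0648 to 0.269). The *Ighv4-1* call against DMBA was lost without DMBA replicate 2 (0.112), TAM_long replicate 1 (0.299) or TAM_long replicate 2 (0.151), and in a fit to the 2 groups alone (0.184).

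Among the other leading V genes, *Igkv4-59*, *Igkv1-110* and *Ighv2-2* did not pass in DMBA, TAM_long or TAM_short against control or in TAM_long against DMBA (adjusted p = 0.0869 to 0.941). *Igkv4-59* had 276 and 369 reads in control, 111 and 302 in DMBA, 115 and 118 in TAM_short and 250 and 331 in TAM_long. *Igkv1-110* had 214 and 177, 119 and 266, 184 and 178, and 211 and 328. *Ighv2-2* had 56 and 43, 25 and 73, 20 and 9, and 49 and 41. *Ighv2-9-1* had 59 and 40, 29 and 35, 19 and 12, and 63 and 57, and fell in TAM_short against control (log2 fold change -1.64 by edgeR, SE 0.37, adjusted p = 0.0203), a call lost without any 1 library (0.0655 to 0.178). *Igkv12-98*, named after its values were seen, had 5 and 4 reads in control, 45 and 38 in DMBA, 25 and 31 in TAM_short and 30 and 18 in TAM_long, above control in all 6 libraries, with log2 fold changes of 2.94, 2.64 and 2.03 (adjusted p = 0.000814, 0.00645 and 0.00732); the TAM_short call was lost without either control library or TAM_short replicate 2 (0.0573 to 0.0731) and the TAM_long call without control replicate 2 (0.0585) or TAM_long replicate 1 (0.0552).

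V reads made up an unequal part of the transcripts across groups. Per length, the *Igkv* level was 0.599 and 0.532 of the *Igkc* level in control, 0.434 and 0.414 in DMBA, 0.375 and 0.340 in TAM_short, and 0.317 and 0.324 in TAM_long, with no overlap between neighbouring groups. The *Ighv* level was 0.166 and 0.153 of the heavy chain constant region level in control, 0.0978 and 0.0958 in DMBA, 0.0710 and 0.0532 in TAM_short, and 0.0806 and 0.0664 in TAM_long. These ratios compare reads as they were mapped to germline V genes.

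Genes of plasma cells outside the immunoglobulin loci were followed in a list of 16. *Jchain*, which links IgA into dimers, had 594 and 695 normalized CPM in control, 451 and 1301 in DMBA, 1083 and 1294 in TAM_short, 1078 and 1481 in TAM_long, and 1.58 and 0.44 in DMBA+TAM (3 counts and 1). *Mzb1*, a chaperone of antibody assembly, had 9.56 to 47.6 in 8 libraries and 0 in DMBA+TAM, and *Pou2af1*, a coactivator of immunoglobulin transcription, and *Tnfrsf17*, a plasma cell survival receptor, were also at 0 there. *Sdc1*, *Xbp1* and *Txndc5*, which other cell types express as well, had 275 to 308, 165 to 183 and 260 to 265 in DMBA+TAM, against 89.0 to 244, 182 to 341 and 271 to 454 elsewhere. Set against control, 3 of the 16 genes were higher in DMBA+TAM and 8 lower, with a median log2 fold change of -0.52 (of all genes, 29.0% were higher and 35.3% lower, with a median of -0.17). In DMBA against control 4 were higher and 3 lower, near the shares of all genes (24.5% and 23.3%), in TAM_long 2 and 3 (all genes 23.2% and 22.8%), and in TAM_short 4 and 0 (all genes 6.52% and 7.80%).

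Several B cell genes outside the immunoglobulin loci were high in the same libraries as *Ighd*. *Ms4a1*, which encodes CD20, had 0 and 9.15 normalized CPM in control, 0.18 and 24.7 in DMBA, 19.1 and 20.6 in TAM_short, 1.12 and 0.49 in TAM_long, and 0.53 and 0.44 in DMBA+TAM. *Cr2* and *Pax5* showed the same libraries high. In DMBA+TAM the list summed to 120.4 and 119.4, of which *Ebf1* (72.3 and 64.3) and *Cd37* (39.1 and 39.7) made up most, while *Cr2*, *Blk* and *Fcer2a* were at 0. *Ighm*, with 76 and 88 counts there, thus stood beside these B cell genes with no read. Set against control, 2 of 15 B cell genes were higher in DMBA+TAM and 0 lower (all genes 29.0% and 35.3%), with a median log2 fold change of -2.24. Against TAM_short 2 were higher and 3 lower (all genes 29.3% and 33.8%), with a median of -3.62. *Rag1* and *Vpreb2*, genes of V(D)J recombination and of the pre-B cell receptor, had no read in any library, and 7 of the 13 genes of the list of germinal centre, switching and recombination genes were testable, of which DMBA+TAM had 2 higher and 1 lower against control, no more than the shares of all genes.

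Receptors and carriers of antibody also differed. *Pigr*, the polymeric Ig receptor, had 3701 to 5858 normalized CPM in 8 libraries and 5.81 and 6.61 in DMBA+TAM. *Ccl28*, a chemokine for IgA plasmablasts, had 65.4 to 146 in 8 libraries and 2.11 and 0 in DMBA+TAM. Of 13 testable genes of IgA transport, survival and homing, DMBA+TAM had 4 higher and 7 lower against control, and of 9 Fc receptor genes 7 higher and 1 lower (all genes 29.0% and 35.3%). *Fcgr2b*, the inhibitory IgG receptor, had 1.70 to 13.7 in 8 libraries and 231 and 182 in DMBA+TAM, and *Fcgrt*, the neonatal Fc receptor, 61.1 to 139 against 342 and 346. *Fcgr* genes are expressed by macrophages, of whose marker genes 10 of 10 passed as higher in that comparison; their part in the Fc receptor values was not tested. In it, 10 of 10 epithelial genes were lower, 10 of 10 fibroblast genes were higher, and of 11 testable T cell genes 1 was higher and 6 were lower. The summed T cell level was 65.5 and 78.0 normalized CPM in control, 29.4 and 42.5 in DMBA, 149.8 and 155 in TAM_short, 36.4 and 26.3 in TAM_long, and 17.9 and 15.9 in DMBA+TAM. Against control, 0 of the 11 were higher and 4 lower in DMBA (all genes 24.5% and 23.3%), 0 and 5 in TAM_long (all genes 23.2% and 22.8%), and 5 and 0 in TAM_short (all genes 6.52% and 7.80%).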

How the data were processed

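RNA was sequenced from 10 organoid libraries after poly(A) selection. The authors mapped reads with TopHat to GRCm38.p6 and counted reads per gene with HTSeq; the strand setting of counting is not given in the sources used here. The deposited counts are whole reads per gene, and the deposited FPKM values are those counts scaled by length and by mapped reads, as the authors computed them. The deposited gene length column was used only as an alternative, since for 10521 of 14374 genes with at least 100 counts the length behind FPKM differed from it. Columns of the authors' own comparisons (fold changes and p-values) were not used. Of 47074 lines, 5 were trailing parts of split lines with no gene ID of their own and were left out.

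Counts were normalized by TMM and tested by edgeR 4.0.16 (quasi-likelihood, all 10 libraries in 1 fit, no block) in R 4.3.3, with Benjamini-Hochberg adjustment over 16179 genes at 0.05. On simulated counts of DMBA against control, 98.5% of 200 genes changed 4-fold were recovered and 6.19% of calls were false. Only these 200 genes were changed, and none was chosen at low counts. The rates therefore do not carry over to members near the floor or to comparisons in which many genes differ. Genes in groups with at most 3 counts per library have folds given as bounds against 3 counts. Shares of constant regions used FPKM; V usage used counts thinned to the smallest library. Shares were tested by exact permutation over the 5 groups (2 groups of 2 alone cannot go below 0.333). Replicates of each group differed by more than sampling noise (chi-square per degree of freedom 5.57 to 67.1), so none was counted as 1.

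The members and gene lists were chosen with earlier results of these data known. Named were all constant region members, the 5 members with the largest sum in each V class, the leading V gene of each library and list genes; other V genes are marked in the text. The promoter search that was planned for V genes was not run, since the promoter table used here held no entry for them. Alternatives were DESeq2 1.42.0, other scalings and filters, a fit per pair of groups, a replicate block and leaving out each library. Figures were drawn with matplotlib 3.10.9. Values of some list genes are not reported here.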

Additional observations from a re-analysis of the deposited data

How the results depend on the processing

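Counts of members called depended on the settings in the comparisons without DMBA+TAM, and on single libraries in all comparisons. With no filter on low counts they were 46 for DMBA against control, 54 for TAM_short against control and 56 for TAM_long against DMBA. With only the libraries of the 2 groups in the fit they were 11, 55 and 2, and DESeq2 gave 23 for TAM_long against DMBA. Leaving out 1 library at a time gave 8 to 51 calls for DMBA against control, 16 to 26 for TAM_long, 0 to 3 for TAM_short and 58 to 72 for DMBA+TAM against control, 49 to 96, 41 to 65 and 44 to 66 for DMBA+TAM against DMBA, TAM_long and TAM_short, and 3 to 42 for TAM_long against DMBA. Where the number of libraries or of genes tested did not set these differences, the cause was not tested. Without both DMBA+TAM libraries, an alternative chosen after seeing the data, the adjusted p was 0.206 for the kappa share and 0.190 for the *Igha* and *Ighg* shares; from V reads the kappa share had 0.0720 over 9 libraries, 1 of them DMBA+TAM with 3 V reads. Leaving out 1 library gave adjusted p-values of 0.0169 to 0.0910 for kappa, 0.0254 to 0.0593 for *Igha*, 0.0254 to 0.163 for *Ighg*, 0.0349 to 0.124 for *Ighm* and 0.33 to 0.743 for the effective number of V genes. The summed level differed by -7.19 in FPKM and by -6.73 to -6.53 with 1 library left out. With 1 library left out, the log2 fold change in DMBA against control ran from -0.66 to 0.85 for *Igha* and from -0.28 to 1.03 for *Igkc*, lowest without DMBA replicate 2. That of *Igha* in TAM_short against control ran from -0.016 (without TAM_short replicate 2) to 0.30, and that of *Ighm* in DMBA+TAM against DMBA from -0.66 (without DMBA replicate 1) to 2.95. Over 149 pairs of named gene and comparison (those called with all libraries, and *Igha*, *Igkc* and *Ighm* in chosen comparisons; other uncalled pairs were not counted), 1158 alternative values kept direction and side of the threshold, 153 lost the call, 10 gained it and 4 changed sign. With no filter, *Ighm* passed against control (adjusted p = 7.14e-10) and TAM_long (9.96e-08). With the replicate number as a block the counts were 23, 45 and 27 for DMBA, TAM_long and TAM_short against control, 83, 77, 73 and 76 for DMBA+TAM against control, DMBA, TAM_long and TAM_short, and 14 for TAM_long against DMBA; deviations of same-numbered libraries correlated at -0.04 to 0.26 (0.26 for DMBA with TAM_long and at most 0.087 for the other 9 pairs of groups), so the numbers were not taken to pair the libraries. The low depth of DMBA+TAM limits all values at 0 there to the level of 3 counts.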
